A study of Homo sapiens with 12 samples.

Results

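Ribosome biogenesis factors are the proteins that transcribe, cut, modify and fold ribosomal RNA and assemble it with ribosomal proteins, without staying in the finished ribosome. A list of 59 such genes was followed, chosen by what their products are known to do and with earlier results of these data known. The shares given below therefore describe this list and are not an independent test. Of the 59 genes, 55 had an array row annotated with that gene symbol alone, among 18417 genes tested in the series. The row of NOP56 names several genes, and NOP56, GNL3, DDX18 and EBNA1BP2 were not analysed here. Where a gene had several rows, the row with the highest mean was used.

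Expression was measured on 12 Affymetrix Gene ST arrays from UKE1 and HEL, which are labelled as established human erythroleukemia lines. Both carry the JAK2V617F mutation, a change that keeps the kinase JAK2 active. The groups, of 3 arrays each, were UKE1 cells cultured for 6 h with 250 nM ITF2357, untreated UKE1 cells, HEL cells cultured for 6 h with 250 nM ITF2357, and untreated HEL cells. ITF2357, or givinostat, blocks histone deacetylases, which strip acetyl groups off histones and further proteins. The series calls its samples independent triplicates and says no more of how cultures were kept apart, so each p-value reflects only how far these samples scatter. Each line is a single model, and horse serum and hydrocortisone were in the medium of UKE1 but not of HEL.

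Ribosomes are built in the nucleolus. RNA polymerase I transcribes a long precursor RNA, on which the small-subunit processome, a large particle organised by the U3 snoRNP, forms while transcription goes on. Other factors mature the precursors of the large subunit, late factors accompany the small subunit to the cytoplasm, and small nucleolar ribonucleoproteins (snoRNPs) modify the RNA. In blood cells this pathway is known for its link to growth and for inherited anaemias in which it is impaired.

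All levels below are log2 values on the authors' normalized scale, so a difference of 1 is a 2-fold change, and levels are compared only within a gene. Array medians lay between 6.41 and 6.50 on that scale. Replicate arrays had a Pearson r of at least 0.994 across the table, and r between UKE1 and HEL arrays did not exceed 0.943. Precision is limited by having 3 arrays a group. The labelled cell type was checked on 8 of 12 erythroid markers with a row, whose mean per array was 6.67 to 6.73 in treated UKE1, 6.73 to 6.78 in untreated UKE1, 8.96 to 9.05 in treated HEL and 9.13 to 9.16 in untreated HEL. By the test described below, 7 of these 8 markers were lower and 1 was higher in untreated UKE1 than in untreated HEL. The embryonic globin HBE1 had the widest gap, at a mean of 5.19 in untreated UKE1 and 12.95 in untreated HEL. AHSP was the marker that was higher, at 3.97 in untreated UKE1 and 3.74 in untreated HEL. Both values lay well below the array medians, so this difference is between low signals. Over 5 of 6 T and B lymphocyte markers the array means were 7.45 to 7.49 in treated UKE1, 7.78 to 7.86 in untreated UKE1, 4.40 to 4.57 in treated HEL and 4.59 to 4.74 in untreated HEL. The erythroid label had less support from its markers in UKE1 than in HEL.

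Most of the 55 factors fell with ITF2357 in both lines. In UKE1, 46 (83.6%) fell and 1 rose at an adjusted p under 0.05, while 22.3% of all genes fell and 22% rose. In HEL, 44 (80.0%) fell and 1 rose, while 19.9% of all genes fell and 22.6% rose. The calls come from limma's two-sided moderated test, with p-values adjusted by Benjamini-Hochberg across the 18417 genes. Both lines shared 42 factors that fell, against 12.9% of all genes. The median log2 change of the factors was -0.49 in UKE1 and -0.65 in HEL, whereas over all genes it was 0.01 in UKE1 and -0.01 in HEL. The interquartile range of the factors was -0.75 to -0.27 in UKE1 and -0.87 to -0.33 in HEL. In these bulk samples, fewer cells of a type and less RNA per cell cannot be told apart.

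Some markers of cell types also moved with the drug. Of 5 megakaryocyte markers with a row, of 6 listed, 3 fell in UKE1 and 2 in HEL, and none rose. Their mean per array was 8.70 to 8.79 in treated UKE1 against 9.05 to 9.13 in untreated UKE1, and 8.86 to 8.99 in treated HEL against 9.17 to 9.34 in untreated HEL. Of the lymphocyte markers 4 of 5 fell in UKE1 and 1 in HEL. Of the erythroid markers 1 of 8 fell in UKE1, while 2 fell and 1 rose in HEL. Of 5 epithelial markers 1 rose in UKE1, while 1 fell and 1 rose in HEL. Of 4 fibroblast markers 1 rose in UKE1. Over all genes 22.3% fell and 22% rose in UKE1, and 19.9% fell and 22.6% rose in HEL, so several of these counts are near those shares. The part of these marker changes in the fall of the factors was not tested.

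The shift was present on each treated array. Set against the mean of the untreated arrays of its line, the median factor stood at -0.50, -0.46 and -0.50 on the 3 treated UKE1 arrays and at 0.02, 0.00 and -0.03 on the untreated ones. On the treated HEL arrays it stood at -0.67, -0.61 and -0.63, and on the untreated HEL arrays at 0.03, -0.01 and -0.04. No treated array came near the untreated arrays of its line, although the untreated arrays are held near 0 because they form that mean. The median of all genes moved by no more than 0.02 on any of the 12 arrays. All 3 treated arrays lay below all 3 untreated arrays for 47 factors in UKE1, where this held for 26.7% of all genes, and for 46 in HEL, where it held for 23.7%.

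**Figure D1:**
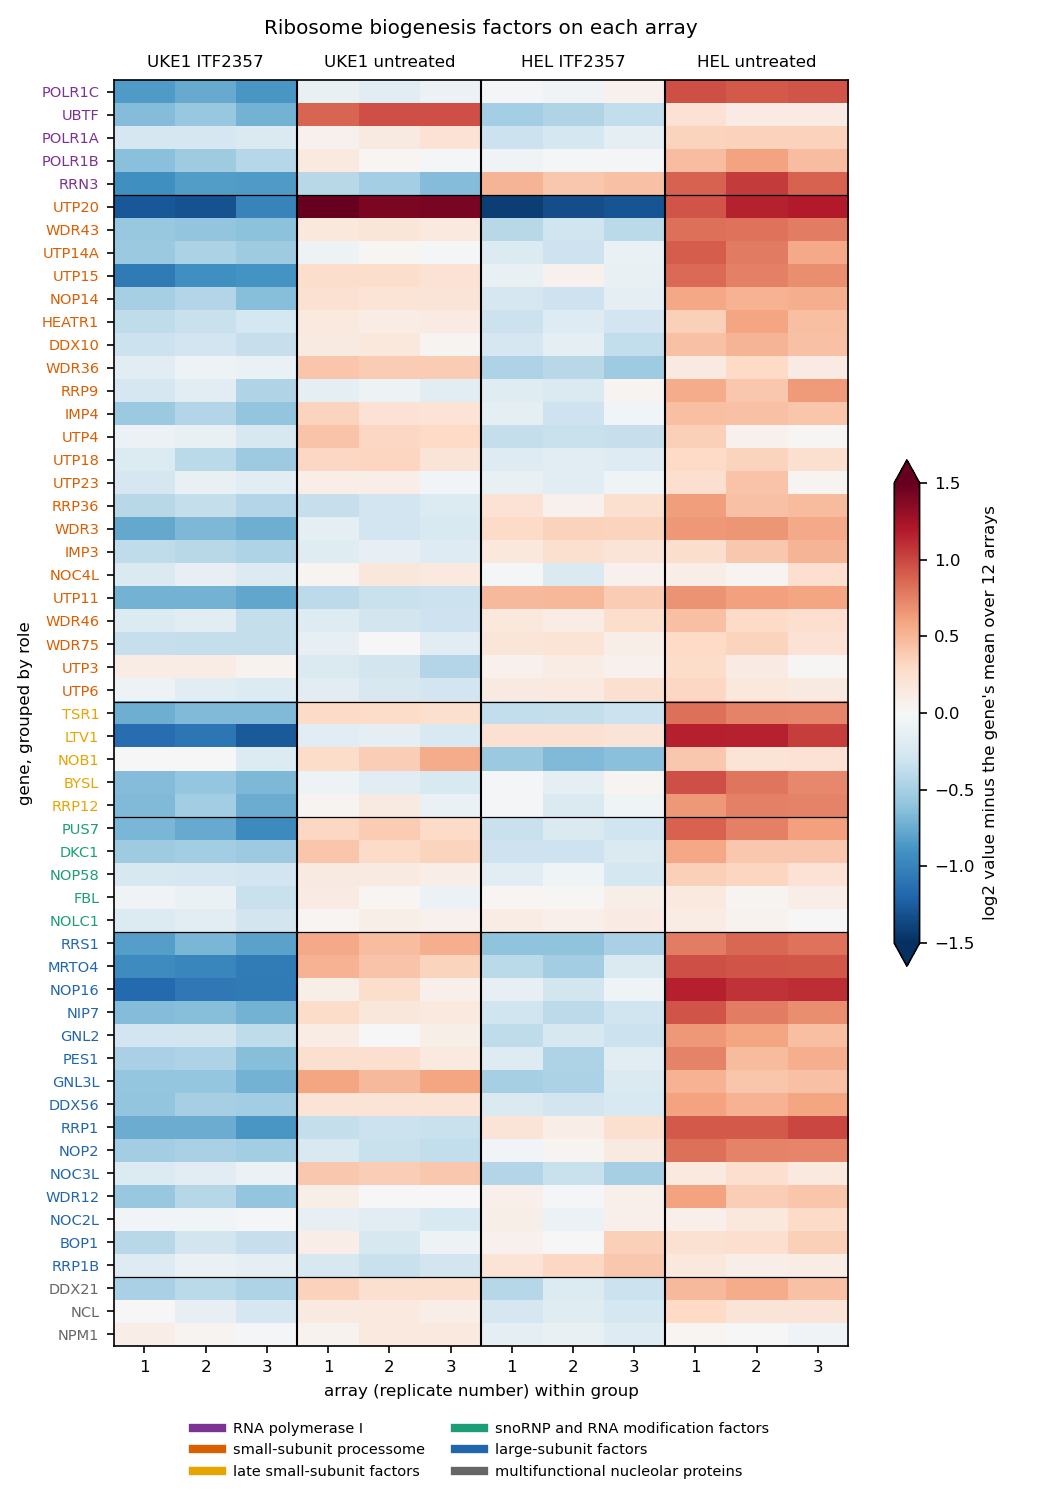
Log2 level of each of the 55 factors on each of the 12 arrays, as the difference from the gene's mean over all 12 arrays (blue, below it; red, above it; the scale ends at 1.5), with factors grouped by role. In most rows the treated arrays of a line are bluer than its untreated arrays, UTP20 has the strongest contrast, and untreated HEL arrays are above the mean in nearly every row.

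A decrease of at least 2-fold was less common. It was called for 8 factors in UKE1, against 2.26% of all genes, and for 8 in HEL, against 1.36%. UTP20, RRS1, NOP16, MRTO4 and PUS7 were among the 8 in both lines. UBTF, UTP15 and GNL3L joined them in UKE1, and WDR43, TSR1 and NIP7 in HEL.

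Of the 22 factors of the small-subunit processome, 17 fell in each line, 1 rose in UKE1, and the median change was -0.44 in UKE1 and -0.49 in HEL. UTP20, a very large scaffold protein of this particle, had the deepest decrease of all genes in UKE1 and the second deepest in HEL. With ITF2357 the 3 UKE1 arrays measured UTP20 at 6.31, 6.27 and 6.58, against 9.08, 8.99 and 9.00 without drug. Treated HEL arrays read 6.16, 6.25 and 6.28 for UTP20, and untreated HEL arrays 8.53, 8.74 and 8.76. The treated and untreated arrays lay over 2 log2 units apart in both lines, with no overlap. The change of UTP20 was -2.63 ± 0.0867 (SE) in UKE1, or 6.21-fold lower (adjusted p = 1.29e-10), and -2.45 ± 0.0867 in HEL, or 5.45-fold lower (adjusted p = 7.83e-10).

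The promoter of UTP20 is printed because this gene responded most. It holds the palindrome CACGTG, an E-box to which MYC with MAX and several other factors can bind, at the bases in capitals, which begin 10 bases before the gene's start. The sequence covers the 250 bases before the start in RefSeq's GRCh38.p14, written 5′ to 3′ on the gene's strand.
UTP20 promoter, chr12:101279855-101280104, plus strand: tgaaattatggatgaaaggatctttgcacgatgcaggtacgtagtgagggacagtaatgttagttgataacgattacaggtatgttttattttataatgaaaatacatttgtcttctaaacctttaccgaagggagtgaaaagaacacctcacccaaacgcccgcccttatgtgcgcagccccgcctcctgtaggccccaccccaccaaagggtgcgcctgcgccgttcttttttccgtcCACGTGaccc

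Factors of the complex that joins the precursor first, known as UTP-A, fell by different amounts. WDR43, one of its subunits, measured 9.85, 9.84 and 9.81 in treated UKE1, against 10.58, 10.61 and 10.57 in untreated UKE1. In HEL it measured 10.00, 10.12 and 10.02 with drug, against 11.25, 11.23 and 11.20 without. Neither line showed any overlap. The changes of -0.75 ± 0.0553 in UKE1 (adjusted p = 9.94e-08) and -1.18 ± 0.0553 in HEL (adjusted p = 2.84e-09) made it the second deepest fall of the processome in HEL.
WDR43 promoter, chr2:28894417-28894666, plus strand: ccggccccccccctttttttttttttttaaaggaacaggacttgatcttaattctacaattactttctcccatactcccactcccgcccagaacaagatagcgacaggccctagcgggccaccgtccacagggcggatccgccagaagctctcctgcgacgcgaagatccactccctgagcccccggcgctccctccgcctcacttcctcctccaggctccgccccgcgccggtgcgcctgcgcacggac
No CACGTG lies in these 250 bases of WDR43, and the one in its window begins at base 4, where base 1 is the start. UTP15, another subunit of that complex, measured 7.43, 7.56 and 7.59 in treated UKE1, against 8.75, 8.75 and 8.70 in untreated UKE1. In HEL, UTP15 stood at 8.38, 8.55 and 8.38 with drug and 9.33, 9.25 and 9.19 without. Here the deeper fall was that of UKE1, -1.21 ± 0.0699 (adjusted p = 1.18e-08), beside -0.82 ± 0.0699 in HEL (adjusted p = 4.24e-07). UTP4 changed by -0.50 in both lines and HEATR1 by -0.45 in UKE1 and -0.73 in HEL. WDR75, a further subunit, fell by 0.26 in UKE1, while its HEL difference of -0.13 did not pass the test (adjusted p = 0.131).

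In the UTP-B complex, which follows UTP-A on the precursor, WDR3 changed by -0.50 in UKE1 and -0.31 in HEL. WDR36 changed by -0.51 in UKE1 and -0.66 in HEL, and UTP18 by -0.67 in UKE1 and -0.47 in HEL. All 6 of these changes passed the test. UTP6, the remaining subunit on the list, read 0.08 in UKE1 (adjusted p = 0.39) and -0.03 in HEL (adjusted p = 0.772), and its treated and untreated arrays overlapped in both lines.

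Among proteins bound to the U3 snoRNP, IMP4 fell by 0.78 in UKE1 and 0.60 in HEL. IMP3 fell by 0.26 in UKE1 and 0.20 in HEL (adjusted p = 0.0301), and the HEL call was lost when any of 4 HEL arrays was left out (untreated replicate 2 or 3, treated replicate 1 or 3), with changes of -0.19 to -0.14 and adjusted p-values of 0.0632 to 0.129. RRP9, which binds U3 RNA itself, measured 8.23, 8.33 and 8.03 in treated UKE1 against 8.34, 8.41 and 8.33 in untreated UKE1, which overlapped (-0.16, adjusted p = 0.189). RRP9 levels in HEL were 8.31, 8.26 and 8.53 with drug against 9.05, 8.89 and 9.12, a fall of 0.65 ± 0.0919 (adjusted p = 4.53e-05).

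The others of the processome also ranged widely. NOP14 fell by 0.74 in UKE1 and 0.78 in HEL, whereas NOC4L, its known partner, fell by 0.29 in UKE1 and was not called in HEL (-0.19, adjusted p = 0.0681). Without treated HEL replicate 3 the HEL change of NOC4L was -0.26 and passed the test (adjusted p = 0.0268). UTP14A, whose yeast counterpart activates a helicase, and the helicase DDX10 fell in both lines, UTP14A by 0.49 in UKE1 and 0.95 in HEL, DDX10 by 0.43 in UKE1 and 0.71 in HEL. RRP36 fell in HEL (-0.34) and was not called in UKE1 (-0.12, adjusted p = 0.197), while WDR46 was called in neither line (0.02 in UKE1, -0.15 in HEL). UTP11 fell by 0.39 in UKE1 and 0.17 in HEL (adjusted p = 0.0291), with the HEL call lost without untreated HEL replicate 1 or 2 or treated HEL replicate 3 (-0.18 to -0.13, adjusted p = 0.0591 to 0.11). UTP23 fell by 0.35 in HEL and 0.23 in UKE1 (adjusted p = 0.0463), and its UKE1 call was lost in 9 of the 12 fits that left out 1 array (highest adjusted p = 0.151).

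UTP3, also called SAS10, was the processome factor that rose. Its treated UKE1 arrays read 9.69, 9.70 and 9.63 and its untreated UKE1 arrays 9.37, 9.31 and 9.14, an increase of 0.40 ± 0.0767 (adjusted p = 0.000625). In HEL it read 9.65, 9.70 and 9.64 with drug and 9.87, 9.71 and 9.60 without, so that the arrays overlapped (-0.06, adjusted p = 0.568).

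**Figure D2:**
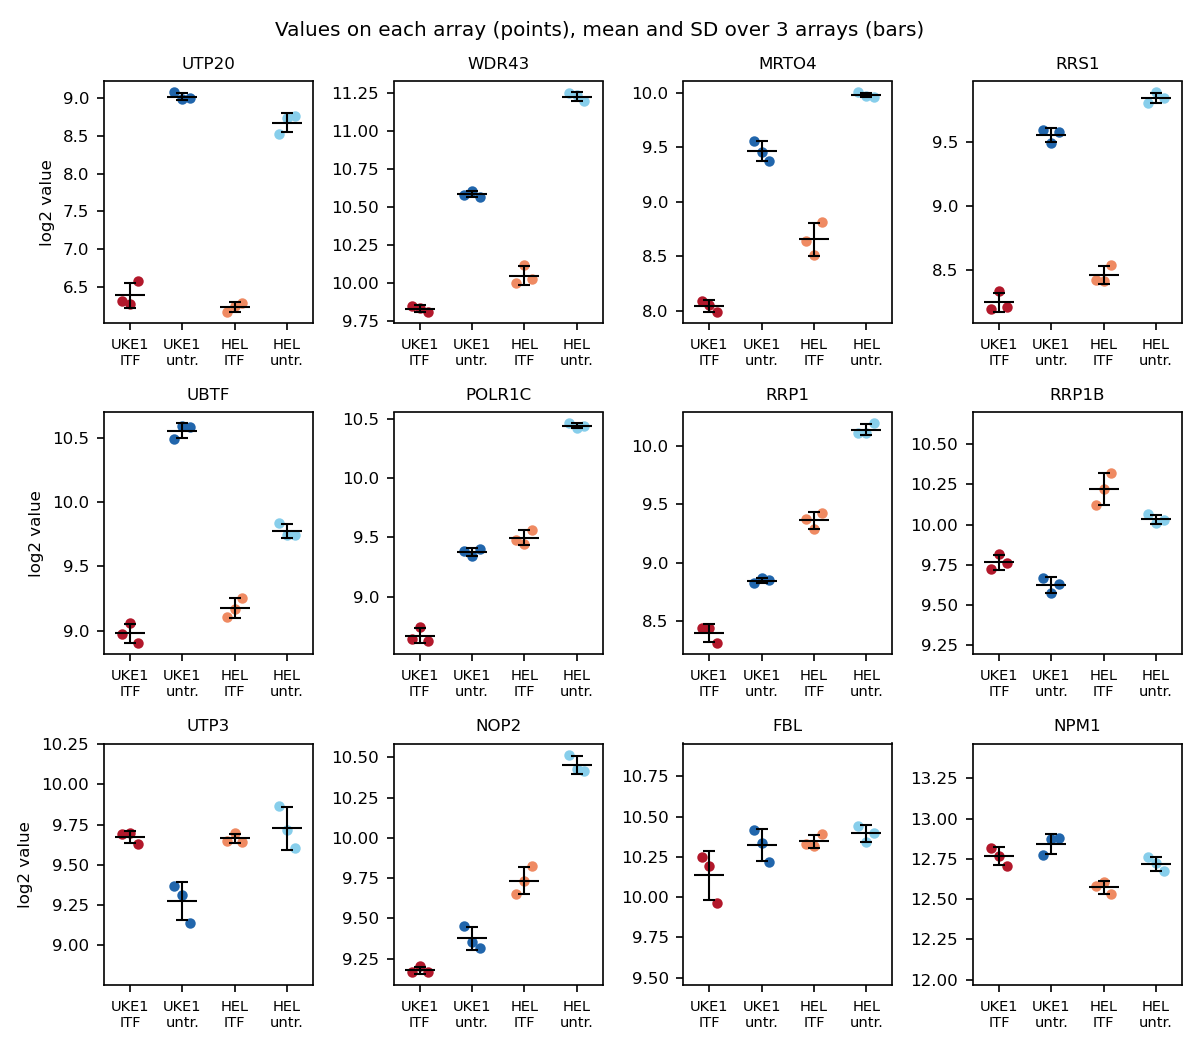
Log2 level on every array for 12 factors (UTP20, WDR43, MRTO4, RRS1, UBTF, POLR1C, RRP1, RRP1B, UTP3, NOP2, FBL and NPM1), with 3 points per group and bars for the group mean and SD. UTP20 separates the treated from the untreated arrays most, UTP3 is higher with ITF2357 in UKE1, and the FBL and NPM1 groups lie close together.

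All 5 late factors of the small subunit fell in both lines, with medians of -0.67 in UKE1 and -0.89 in HEL. LTV1 and TSR1, which hold the maturing subunit inactive, fell most. LTV1 measured 8.80, 8.86 and 8.68 in treated UKE1 against 9.78, 9.79 and 9.72 in untreated UKE1 (-0.98 ± 0.0636, adjusted p = 3.14e-08). For HEL the levels of LTV1 were 10.16, 10.17 and 10.14 with drug against 11.11, 11.09 and 10.98 without (-0.90 ± 0.0636, adjusted p = 8.09e-08). Both sets of treated arrays lay wholly below their untreated arrays. TSR1 measured 8.73, 8.80 and 8.80 in treated UKE1 against 9.75, 9.73 and 9.70 in untreated UKE1, a fall of 0.95 ± 0.0548 (adjusted p = 1.17e-08). In HEL, TSR1 stood at 9.10, 9.11 and 9.14 with drug and 10.28, 10.21 and 10.20 without, a fall of 1.11 ± 0.0548 (adjusted p = 4.23e-09). Its replicate arrays differed by less than 0.1 within each group. The TSR1 promoter is given because TSR1 was among the 5 factors with the smallest adjusted p over both lines that have a printed promoter. It holds no CACGTG in its window.
TSR1 promoter, chr17:2336458-2336707, minus strand: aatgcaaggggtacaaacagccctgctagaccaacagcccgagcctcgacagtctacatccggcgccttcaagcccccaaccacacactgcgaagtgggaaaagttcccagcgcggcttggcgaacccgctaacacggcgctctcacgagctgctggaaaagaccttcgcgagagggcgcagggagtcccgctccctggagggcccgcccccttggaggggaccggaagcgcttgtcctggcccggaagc

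The remaining late factors fell in both lines as well. NOB1, the nuclease that makes the final cut of the small-subunit RNA, fell by 0.46 ± 0.0866 in UKE1 (adjusted p = 0.000514) and by 0.89 ± 0.0866 in HEL (adjusted p = 1.4e-06). BYSL fell by 0.48 in UKE1 and 0.87 in HEL. RRP12, which takes part in export from the nucleus, fell by 0.67 in UKE1 and 0.82 in HEL. All 3 had treated arrays below the untreated arrays in each line.

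Of 15 large-subunit factors, 13 fell in UKE1 and 12 in HEL, and 1 rose in HEL. Their median changes were -0.56 in UKE1 and -0.81 in HEL. MRTO4, which holds the place of a stalk protein on the precursor, measured 8.09, 8.05 and 7.99 in treated UKE1, against 9.56, 9.46 and 9.37 in untreated UKE1. In HEL its levels were 8.64, 8.51 and 8.81 with drug and 10.00, 9.97 and 9.97 without. No array of a treated group reached the untreated ones. The falls were 1.42 ± 0.0775 in UKE1 (2.68-fold, adjusted p = 7.46e-09) and 1.33 ± 0.0775 in HEL (2.51-fold, adjusted p = 1.64e-08). RRS1, which helps to bring a small ribosomal RNA into the large subunit, measured 8.19, 8.34 and 8.22 in treated UKE1 against 9.59, 9.49 and 9.57 in untreated UKE1 (-1.30 ± 0.0635, adjusted p = 3.01e-09). In HEL, RRS1 read 8.43, 8.41 and 8.54 with drug and 9.80, 9.88 and 9.84 without (-1.38 ± 0.0635, adjusted p = 2.58e-09). NOP16, an assembly factor of early large-subunit precursors, came next: it measured 6.87, 6.95 and 6.96 in treated UKE1 against 8.11, 8.29 and 8.10 in untreated UKE1 (-1.24 ± 0.0721). Treated HEL arrays gave NOP16 levels of 7.90, 7.75 and 7.96, and untreated HEL arrays 9.20, 9.11 and 9.13 (-1.28 ± 0.0721). These falls differed between the lines by no more than 0.09 for each of MRTO4, RRS1 and NOP16. The promoters of MRTO4 and NOP16 follow for comparison with those above.
MRTO4 promoter, chr1:19251555-19251804, plus strand: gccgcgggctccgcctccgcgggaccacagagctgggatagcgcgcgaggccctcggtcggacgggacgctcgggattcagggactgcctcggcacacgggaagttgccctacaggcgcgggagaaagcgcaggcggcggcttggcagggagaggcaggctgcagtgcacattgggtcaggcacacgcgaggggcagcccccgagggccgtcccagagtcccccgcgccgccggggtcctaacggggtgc
NOP16 promoter, chr5:176388599-176388848, minus strand: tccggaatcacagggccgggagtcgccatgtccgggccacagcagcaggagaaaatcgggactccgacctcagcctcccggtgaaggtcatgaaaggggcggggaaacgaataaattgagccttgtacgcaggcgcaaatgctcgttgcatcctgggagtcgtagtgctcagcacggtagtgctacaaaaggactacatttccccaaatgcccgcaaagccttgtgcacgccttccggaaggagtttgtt
Neither of these stretches holds CACGTG, although the window of MRTO4 has one that begins at base 15.

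PES1, BOP1 and WDR12 form the PeBoW complex of large-subunit processing. PES1 fell by 0.74 in UKE1 and 0.86 in HEL, and WDR12 by 0.56 in UKE1 and 0.42 in HEL. BOP1 measured 8.80, 8.94 and 8.87 in treated UKE1 against 9.32, 8.98 and 9.14 in untreated UKE1 (-0.27 ± 0.0992, adjusted p = 0.037), and was not called in HEL (-0.13, adjusted p = 0.318). Its UKE1 call was lost without UKE1 untreated replicate 1 or 3 or treated replicate 1 or 3, with changes of -0.28 to -0.19 and adjusted p-values of 0.0733 to 0.166.

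RRP1 and RRP1B are paralogs, and their values differed in sign. Whether the probes of either gene also bind RNA of the other was not tested. RRP1 measured 8.45, 8.44 and 8.31 in treated UKE1 against 8.83, 8.87 and 8.85 in untreated UKE1, and 9.38, 9.29 and 9.43 in treated HEL against 10.11, 10.11 and 10.19 in untreated HEL. That amounts to falls of 0.45 ± 0.0619 in UKE1 and 0.77 ± 0.0619 in HEL. RRP1B read 9.72, 9.82 and 9.76 in treated UKE1 against 9.67, 9.57 and 9.63 in untreated UKE1 (0.14 ± 0.0635, adjusted p = 0.085). In HEL it read 10.12, 10.22 and 10.32 with drug and 10.07, 10.01 and 10.03 without (0.19 ± 0.0635, adjusted p = 0.0292). The treated arrays lay above the untreated ones in both lines, but the HEL call was lost without untreated replicate 2 or 3 or treated replicate 2 or 3 of HEL (0.14 to 0.19, adjusted p = 0.0627 to 0.121).

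NIP7 fell by 0.86 in UKE1 and 1.13 in HEL, GNL3L, a nucleolar GTPase, by 1.18 in UKE1 and 0.85 in HEL, and the helicase DDX56 by 0.74 in UKE1 and 0.81 in HEL. NOC3L fell by 0.54 in UKE1 and 0.61 in HEL. NOC2L was called in neither line, at 0.14 in UKE1 (adjusted p = 0.131) and -0.15 in HEL (adjusted p = 0.113). Without untreated HEL replicate 1 the HEL change of NOC2L was -0.20 and passed (adjusted p = 0.0487).

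All 5 RNA polymerase I factors fell in both lines, with a median of -0.58 in each. UBTF, which binds the ribosomal RNA genes and keeps them active, measured 8.97, 9.06 and 8.91 in treated UKE1 against 10.49, 10.59 and 10.58 in untreated UKE1. In HEL it measured 9.10, 9.16 and 9.25 with drug and 9.83, 9.74 and 9.74 without. Treated levels were close in the lines, whereas the untreated level was higher in UKE1. UBTF fell by 1.58 ± 0.0649 in UKE1 (2.98-fold, adjusted p = 8.33e-10) and by 0.60 ± 0.0649 in HEL (1.51-fold, adjusted p = 3.95e-06).

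Subunits of the polymerase fell by less than UBTF did in UKE1. POLR1C, which RNA polymerase III also uses, measured 8.65, 8.74 and 8.63 in treated UKE1 against 9.39, 9.34 and 9.41 in untreated UKE1 (-0.71 ± 0.0583, adjusted p = 2.94e-07). In HEL it measured 9.48, 9.45 and 9.57 with drug and 10.46, 10.42 and 10.44 without (-0.94 ± 0.0583, adjusted p = 2.79e-08). POLR1A and POLR1B form the catalytic core. POLR1B measured 8.97, 9.06 and 9.16 in treated UKE1 against 9.73, 9.62 and 9.57 in untreated UKE1 (-0.58 ± 0.0691), and 9.54, 9.57 and 9.57 in treated HEL against 10.06, 10.19 and 10.05 in untreated HEL (-0.54 ± 0.0691). POLR1A measured 9.20, 9.20 and 9.23 in treated UKE1 against 9.51, 9.58 and 9.66 in untreated UKE1 (-0.37 ± 0.0625), and 9.13, 9.19 and 9.30 in treated HEL against 9.78, 9.80 and 9.79 in untreated HEL (-0.58 ± 0.0625). RRN3, the initiation factor that brings the polymerase to the promoter, measured 9.51, 9.60 and 9.59 in treated UKE1 against 10.02, 9.92 and 9.78 in untreated UKE1 (-0.34 ± 0.0737, adjusted p = 0.0016). Its HEL levels were 10.94, 10.83 and 10.87 with drug and 11.31, 11.48 and 11.32 without (-0.49 ± 0.0737, adjusted p = 8.34e-05). None of these genes had overlapping arrays in either line.

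Of the 5 measured snoRNP and modification factors, 4 fell in UKE1 and 3 in HEL, with medians of -0.38 in UKE1 and -0.46 in HEL. PUS7, a pseudouridine synthase that works without a guide RNA, measured 6.98, 6.92 and 6.71 in treated UKE1 against 7.98, 8.05 and 7.96 in untreated UKE1 (-1.13 ± 0.0822, adjusted p = 9.4e-08). HEL arrays gave PUS7 levels of 7.34, 7.45 and 7.37 with drug and 8.55, 8.43 and 8.29 without (-1.04 ± 0.0822, adjusted p = 2.3e-07). DKC1, the pseudouridine synthase of the box H/ACA snoRNPs and a part of telomerase, measured 9.69, 9.69 and 9.68 in treated UKE1 against 10.63, 10.51 and 10.56 in untreated UKE1 (-0.88 ± 0.0645). In HEL it stood at 9.91, 9.91 and 10.00 with drug and 10.80, 10.62 and 10.62 without (-0.74 ± 0.0645).

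The box C/D proteins, which carry RNA methylation, moved less. NOP58 measured 11.16, 11.16 and 11.11 in treated UKE1 against 11.54, 11.54 and 11.50 in untreated UKE1 (-0.38 ± 0.0642, adjusted p = 0.000205), and 11.24, 11.34 and 11.14 in treated HEL against 11.76, 11.72 and 11.62 in untreated HEL (-0.46 ± 0.0642, adjusted p = 4.03e-05). FBL, the methyltransferase itself, measured 10.25, 10.19 and 9.96 in treated UKE1 against 10.42, 10.33 and 10.22 in untreated UKE1 (-0.19 ± 0.0791, adjusted p = 0.0707). HEL levels of FBL were 10.33, 10.32 and 10.39 with drug and 10.44, 10.34 and 10.40 without (-0.05 ± 0.0791, adjusted p = 0.673). The FBL arrays overlapped in both lines. Among fits that left out 1 array, the UKE1 change passed without untreated UKE1 replicate 3 or treated UKE1 replicate 1 (-0.24 each, adjusted p = 0.0383 and 0.0357). It also passed after each array was centred on its median and with an intensity trend and robust prior. NOLC1, a chaperone of snoRNPs, measured 10.33, 10.38 and 10.26 in treated UKE1 against 10.57, 10.62 and 10.61 in untreated UKE1 (-0.27 ± 0.058, adjusted p = 0.00138). For HEL the NOLC1 levels were 10.65, 10.61 and 10.66 with drug and 10.65, 10.60 and 10.53 without (0.05 ± 0.058, adjusted p = 0.566).

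Among abundant proteins of the nucleolus with several functions, DDX21 fell most. This helicase measured 10.36, 10.45 and 10.38 in treated UKE1 against 11.19, 11.09 and 11.08 in untreated UKE1 (-0.72 ± 0.068), and 10.42, 10.64 and 10.53 in treated HEL against 11.34, 11.40 and 11.29 in untreated HEL (-0.82 ± 0.068). Nucleolin (NCL) measured 12.23, 12.10 and 11.98 in treated UKE1 against 12.35, 12.37 and 12.32 in untreated UKE1 (-0.24 ± 0.0685, adjusted p = 0.00956), a call lost without treated UKE1 replicate 3 (-0.18, adjusted p = 0.0524). In HEL, NCL measured 11.97, 12.04 and 11.96 with drug and 12.52, 12.41 and 12.42 without (-0.46 ± 0.0685, adjusted p = 7e-05). Nucleophosmin (NPM1), which has near-identical pseudogenes, was called in neither line, though in HEL it passed as lower in 3 of 19 alternative settings. It measured 12.82, 12.77 and 12.71 in treated UKE1 against 12.77, 12.88 and 12.88 in untreated UKE1 (-0.08 ± 0.0592, adjusted p = 0.336), and 12.58, 12.61 and 12.53 in treated HEL against 12.76, 12.72 and 12.67 in untreated HEL (-0.14 ± 0.0592, adjusted p = 0.0659).

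The share of factors that fell was 66.7% to 100% over the roles in UKE1 and 60.0% to 100% in HEL, lowest for the multifunctional proteins in UKE1 and for the snoRNP and modification factors in HEL. Small-subunit factors, processome and late together, fell in 22 of 27 cases in each line, with medians of -0.48 in UKE1 and -0.65 in HEL. Large-subunit factors fell in 13 of 15 cases in UKE1 and 12 of 15 in HEL (medians -0.56 and -0.81), and RNA polymerase I factors in 5 of 5 in each line (-0.58 in both). Within the small subunit, the late factors had lower medians than the processome in both lines. Changes spanned -1.42 to 0.14 among large-subunit factors in UKE1 and -1.38 to 0.19 in HEL, and -1.11 to -0.82 among late small-subunit factors in HEL. No test between roles was made, because the members of a role are not replicates.

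**Figure D3:**
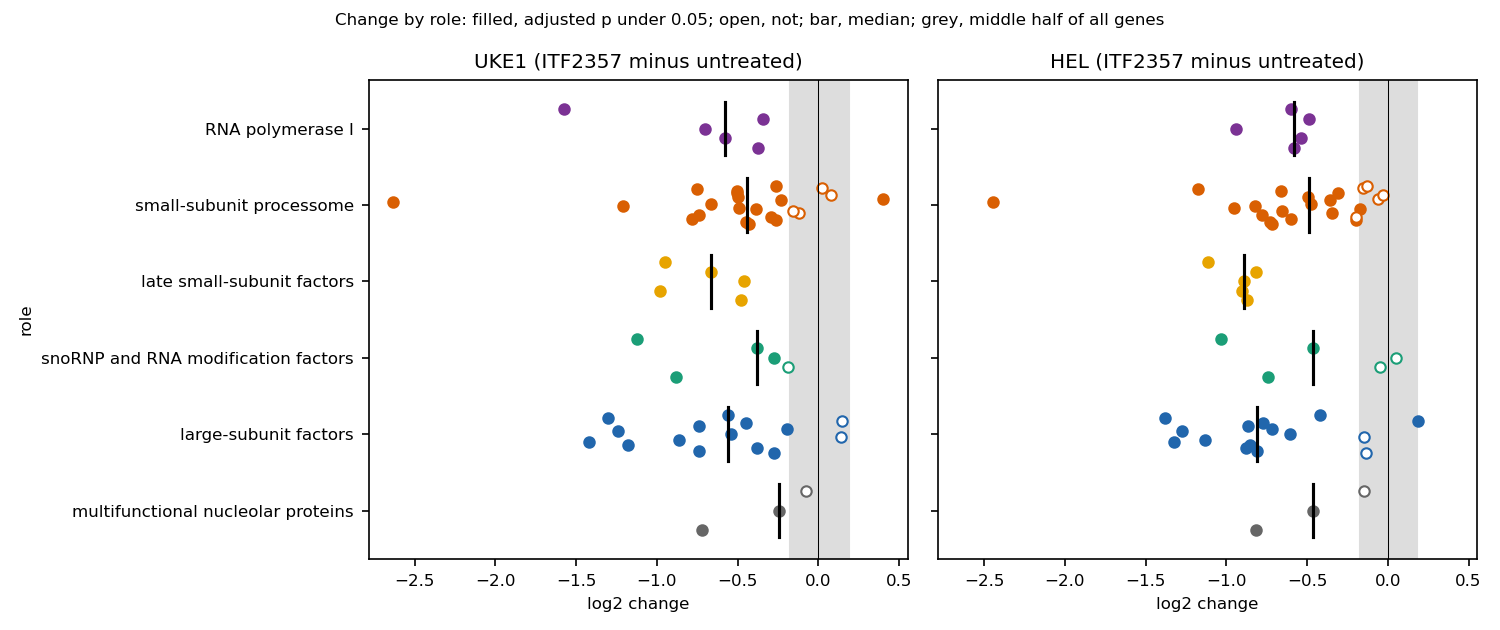
Log2 change with ITF2357 for each factor, by role, in UKE1 and in HEL, with the median of each role as a bar, filled points for factors past the test, and the interquartile range of all genes in grey. The medians lie between -0.67 and -0.24 in UKE1 and between -0.89 and -0.46 in HEL, and the points of the roles overlap.

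The lines, which share no arrays but were normalized together, ranked the factors alike. Across the 55 factors the changes in UKE1 and HEL had a Pearson r of 0.841 and a Spearman rho of 0.788, and without UTP20 r was 0.768 and rho 0.775 over 54 factors. Across all 18417 genes r was 0.65 and rho 0.583. These describe genes, which are not independent replicates.

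**Figure D4:**
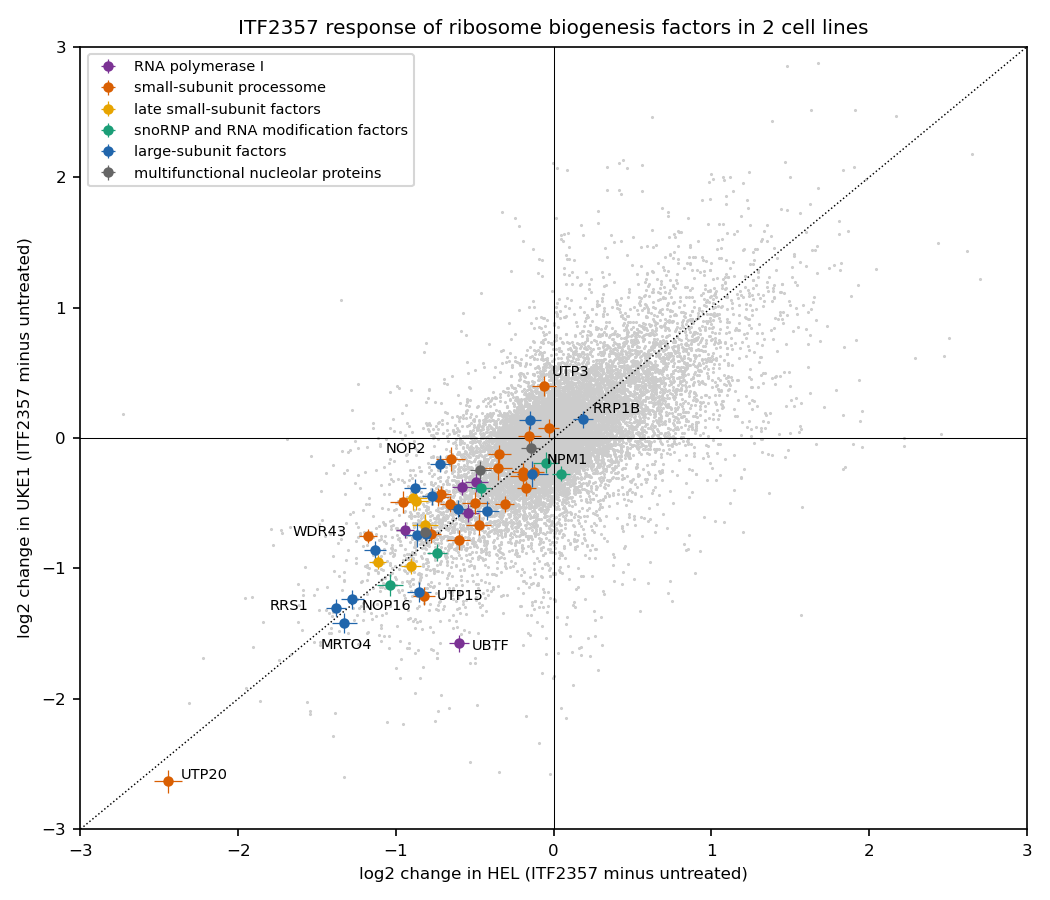
Log2 change with ITF2357 in UKE1 against that in HEL for the 55 factors, coloured by role with standard errors as bars, over all tested genes in grey, with a dotted line of equal change. UTP20 lies far from the others at -2.63 in UKE1 and -2.45 in HEL, and UBTF lies below the line, with a deeper fall in UKE1.

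The responses of the lines were then tested against each other, as the UKE1 change minus the HEL change. Of the 55 factors, 11 had a positive difference, against 10.1% of all genes, and 4 a negative one, against 13.8%. After each array was centred on its median these counts were 8 positive and 5 negative. The 4 negative differences were those of UBTF (-0.98 ± 0.0917, adjusted p = 6.22e-06), UTP15 (-0.39 ± 0.0988, adjusted p = 0.0114), GNL3L (-0.33 ± 0.11, adjusted p = 0.0466) and NOLC1 (-0.32 ± 0.082, adjusted p = 0.0116). UBTF, UTP15 and GNL3L fell in both lines and further in UKE1, and NOLC1 fell in UKE1. GNL3L measured 8.01, 8.01 and 7.87 in treated UKE1 against 9.17, 9.07 and 9.18 in untreated UKE1, and 8.09, 8.12 and 8.37 in treated HEL against 9.11, 9.00 and 9.02 in untreated HEL. Its difference lost the call in 8 of the 12 fits that left out 1 array (adjusted p = 0.061 to 0.11).

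Most positive differences belonged to factors that fell further in HEL. NOP2, a methyltransferase of large-subunit RNA, measured 9.17, 9.20 and 9.17 in treated UKE1 against 9.46, 9.36 and 9.32 in untreated UKE1 (-0.20, adjusted p = 0.0216), a call lost without untreated UKE1 replicate 1 or treated UKE1 replicate 1 or 3 (-0.19 to -0.16, adjusted p = 0.0562 to 0.0939). NOP2 in HEL measured 9.65, 9.73 and 9.82 with drug and 10.52, 10.43 and 10.42 without (-0.72, adjusted p = 6.44e-07), and the difference was 0.52 ± 0.0904 (adjusted p = 0.000912). GNL2, a GTPase of large-subunit export, measured 10.34, 10.35 and 10.24 in treated UKE1 against 10.73, 10.63 and 10.71 in untreated UKE1, and 10.24, 10.38 and 10.30 in treated HEL against 11.28, 11.22 and 11.07 in untreated HEL. Its difference was 0.50 ± 0.0981 (adjusted p = 0.00225). RRP9 (0.49), UTP14A (0.46), UTP3 (0.46), NOB1 (0.43), WDR43 (0.43), BYSL (0.39), RRP1 (0.33), DDX10 (0.29) and HEATR1 (0.28) followed. UTP14A measured 8.57, 8.66 and 8.60 in treated UKE1 against 9.05, 9.15 and 9.11 in untreated UKE1, and 8.93, 8.82 and 9.04 in treated HEL against 10.04, 9.91 and 9.70 in untreated HEL. UTP3 stands apart among these, since it rose in UKE1. The call on NOB1 was lost without untreated UKE1 replicate 1 or treated UKE1 replicate 1 or 2 (0.37 to 0.39, highest adjusted p = 0.0543), on DDX10 in 8 of the 12 such fits (highest adjusted p = 0.0866), on HEATR1 in 10 (highest adjusted p = 0.118) and on RRP1 after centring each array on its median. For MYC, a transcription factor known to drive many genes of this pathway, the same difference was 0.57 ± 0.0822 (adjusted p = 0.000222), with changes of -0.22 in UKE1 and -0.79 in HEL; the part of MYC in these responses was not tested.

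**Figure D5:**
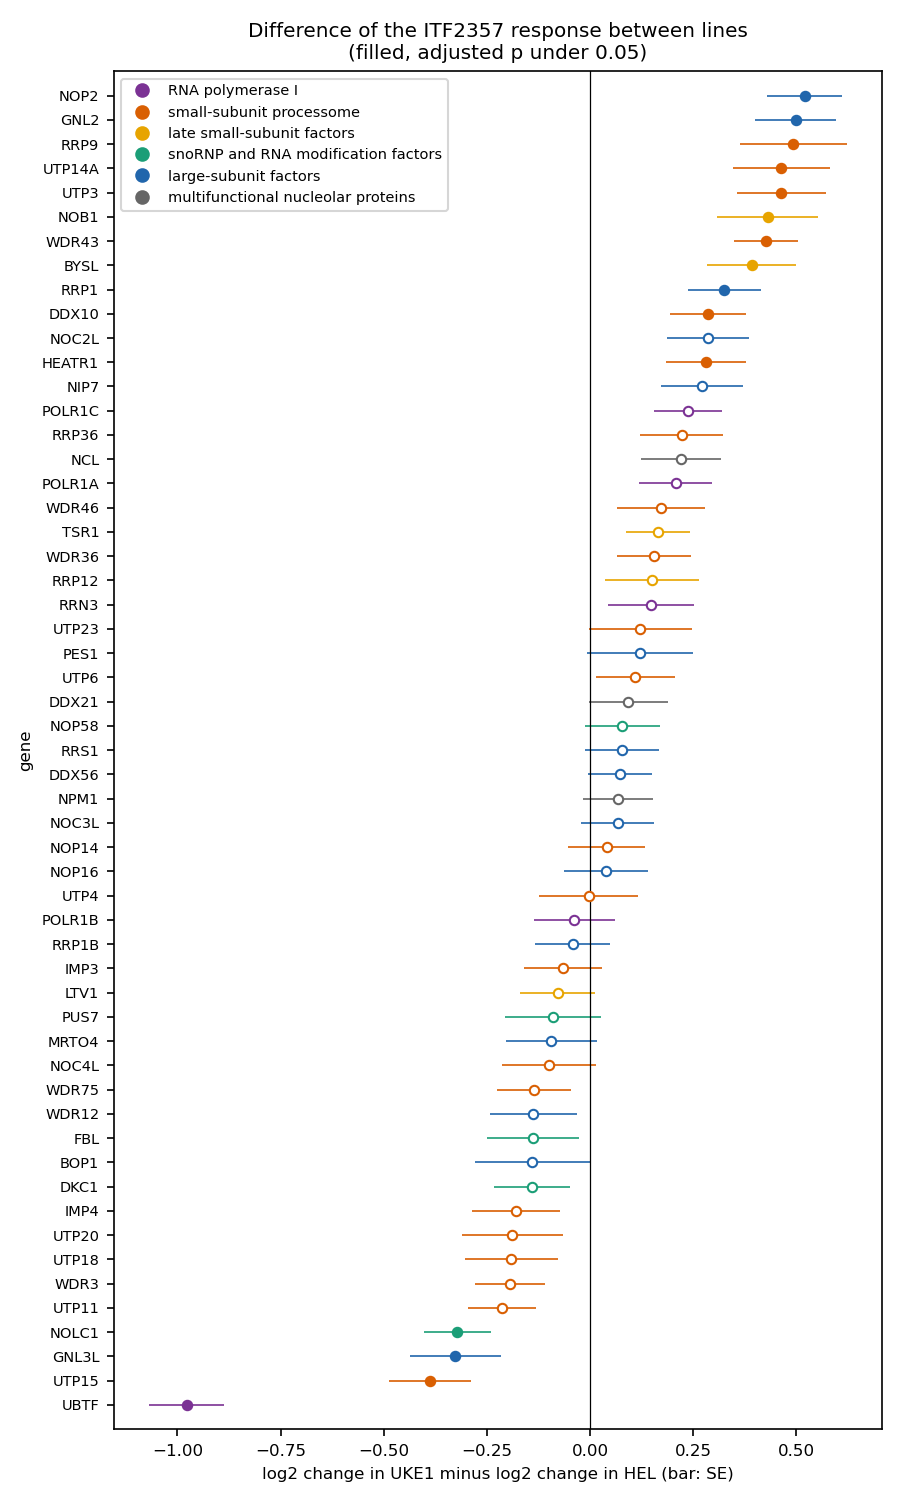
Difference of the ITF2357 response, UKE1 minus HEL in log2, with its standard error as a bar, for all 55 factors, with filled points for an adjusted p under 0.05. UBTF is the lowest at -0.98 and NOP2 the highest at 0.52.

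Without drug, most factors were lower in UKE1 than in HEL. At an adjusted p under 0.05, 40 of the 55 were lower, against 34.4% of all genes, and 5 were higher, against 33.3%, with a median of -0.38. After quantile normalization 36 were lower and 9 higher. The erythroid markers were also lower in UKE1 (7 of 8) and 4 of 5 lymphocyte markers were higher, and the media differed. The part of these in the result was not tested. RRN3 had the lowest difference, -1.47 ± 0.0737 (adjusted p = 3.71e-10), followed by LTV1 at -1.30 ± 0.0636 (adjusted p = 2.83e-10) and RRP1 at -1.29 ± 0.0619 (adjusted p = 2.25e-10). For these genes the per-array levels given above did not overlap between the untreated lines. The genes higher in UKE1 were UBTF (0.78 ± 0.0649, adjusted p = 9.3e-08), UTP20 (0.35 ± 0.0867, adjusted p = 0.00294), WDR36 (0.21 ± 0.0637, adjusted p = 0.0111), NOC3L (0.21, adjusted p = 0.0103) and UTP4 (0.20, adjusted p = 0.0494). WDR36, a protein linked to glaucoma in humans, measured 10.04, 10.01 and 10.02 in untreated UKE1 and 9.77, 9.93 and 9.76 in untreated HEL. The UTP4 call was lost in 11 of the 12 fits that left out 1 array, at changes of 0.14 to 0.23. IMP4 (-0.18, adjusted p = 0.0447) lost its call in 7 such fits and NOP58 (-0.18, adjusted p = 0.0267) in 4, while UTP23 (-0.19) gained one without untreated HEL replicate 3 (-0.29, adjusted p = 0.00704).

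Other genes of the pathway were counted from further lists of the same roles, 75 of which had a row. Of these, 47 (62.7%) fell and 5 rose in UKE1, and 51 (68.0%) fell and 8 rose in HEL. Over all genes 22.3% fell and 22% rose in UKE1, and 19.9% fell and 22.6% rose in HEL. The median changes of the 75 genes were -0.22 in UKE1 and -0.36 in HEL. EMG1, a methyltransferase of small-subunit RNA, fell by 1.20 in UKE1 and 1.52 in HEL, and NOL6, a processome component, by 1.16 in UKE1 and 1.34 in HEL. Among other large-subunit factors, 19 of 30 fell in UKE1 and 18 in HEL, among them BRIX1 (-0.91 in UKE1, -1.40 in HEL) and the GTPase GTPBP4 (-0.88 in UKE1, -0.82 in HEL). GAR1, a box H/ACA protein, fell by 0.52 in UKE1 and 0.82 in HEL, and ZNHIT6, which assembles box C/D snoRNPs, by 0.58 in UKE1 and 0.62 in HEL. POLR1G, a polymerase I subunit, fell by 0.22 in UKE1 and 1.08 in HEL, and TAF1A, a subunit of the promoter factor SL1, by 0.51 in UKE1 and 0.45 in HEL. NOP9 rose by 0.85 in UKE1 and 0.78 in HEL, and NVL, LSG1 and POLR1D also rose in both lines. These 4 were named after their values were seen.

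Promoter windows in RefSeq's GRCh38.p14 annotation, 250 bases before to 50 after each start, were found for 48 of the 55 factors. They were searched for CACGTG, which reads the same on both strands, and a gene counted if any of its listed starts had it. It was present for 19 of 48 factors (39.6%), 10.9% of 14239 tested genes with a window and 8.77% of all 27305 genes with one. In the 250 bases before the start alone, 6 factors (12.5%) held it, near the 9.8% of tested genes. For a motif lying after the start or across it, the counts were 15 factors (31.2%) and 1.55% of tested genes. Median GC content of the windows was 63.3% for the factors and 62.7% for tested genes. These shares are descriptions with no test, and the presence of the letters does not show binding.

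Some of 18 sites are shown for factors of several roles, with 10 bases on each side, to let the surrounding sequence be compared. The sites of RRP9, UTP4, NOC3L and IMP4, and the UTP18 site that begins at base -89, are not shown. Each is written 5′ to 3′ on the gene's strand, with CACGTG in capitals.
UTP20, chr12:101280085-101280110, plus strand: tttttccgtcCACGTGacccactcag
WDR43, chr2:28894660-28894685, plus strand: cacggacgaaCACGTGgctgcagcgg
UTP18, chr17:51260540-51260565, plus strand: agcgaggttcCACGTGagcgcctgcg
NOP14, chr4:2963376-2963401, minus strand: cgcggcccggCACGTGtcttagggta
LTV1, chr6:143843356-143843381, plus strand: cctggggctgCACGTGtggtgaggcc
BYSL, chr6:41921517-41921542, plus strand: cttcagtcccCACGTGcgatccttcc
MRTO4, chr1:19251809-19251834, plus strand: tcttccgccgCACGTGgattcagcgc
PES1, chr22:30591882-30591907, minus strand: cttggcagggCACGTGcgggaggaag
GNL2, chr1:37595919-37595944, minus strand: acgtcgtgcaCACGTGgtccggcgtg
PUS7, chr7:105522228-105522253, minus strand: cgctgcgccgCACGTGtgcgagcccg
FBL, chr19:39846358-39846383, minus strand: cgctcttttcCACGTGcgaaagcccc
DDX21, chr10:68956606-68956631, plus strand: ccgggtgtccCACGTGgtccccggcg
With the start as base 1 and the base before it as -1, these motifs begin at base -10 (UTP20), 4 (WDR43), 5 (UTP18), 16 (NOP14), 29 (LTV1), 29 (BYSL), 15 (MRTO4), 14 (PES1), 4 (GNL2), 29 (PUS7), 7 (FBL) and -31 (DDX21). UTP18 and IMP4 each held 2 copies.

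The response of factors with and without the motif overlapped. Of the 19 with it, 16 fell in UKE1 and 17 in HEL, with medians of -0.67 in UKE1 and -0.82 in HEL. Of the 29 without it, 24 fell and 1 rose in UKE1 and 23 fell in HEL, with medians of -0.45 in UKE1 and -0.58 in HEL. FBL, shown above, and WDR46 hold the motif and were called in neither line. Of the factors that fell at least 2-fold in both lines, UTP20, MRTO4 and PUS7 hold it, NOP16 does not, and RRS1 had no window. Of those that did so in HEL alone, WDR43 holds it and TSR1 and NIP7 do not. UBTF, UTP15 and GNL3L, which did so in UKE1 alone, hold none. The part of the motif in the response was not tested. Over tested genes the medians were -0.02 with and 0.01 without the motif in UKE1, and -0.03 with and -0.01 without it in HEL.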

How the data were processed

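RNA from UKE1 and HEL cells was hybridised to 12 Affymetrix Gene ST arrays, 3 per group. The authors processed them with RMA in Affymetrix Expression Console, per the submitters' processing notes, which means background subtraction, normalization of arrays to each other and a summary of probes. For versions and the genome build, the sources used here give nothing. The deposited values were read as log2 from their range (1.26 to 14.36), because no label states the base, and as no detection flags come with them, genes were not called absent. Normalization of this kind shows changes relative to other genes of the same array.

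Of 33297 rows, 19460 had 1 gene symbol in the platform annotation, 1754 several and 12083 none; rows with 1 symbol gave 18417 genes, using the row with the highest mean. With limma 3.58.1 in R 4.3.3, lmFit and eBayes were run on the 12 arrays with a mean per group, leaving 8 residual degrees of freedom. Contrasts were treated minus untreated in UKE1 and in HEL, the difference of these responses, and untreated UKE1 minus untreated HEL, each with Benjamini-Hochberg adjustment over all genes. Errors of changes are standard errors of the fit. The code of the fit was also run on simulated data with independent errors, which does not test the assumptions of the fit on these arrays.

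The members and lists were chosen with earlier results of these data known. Genes named with values were, in each role, the 3 with the smallest adjusted p for the mean response of both lines (all where a role has 5 or fewer), up to 5 differences of response each way, every factor that rose, 3 differences each way between untreated lines, and 2 genes per list of other pathway genes. Further factors are given as part of their complex, chosen after their values were seen. The labels do not say whether replicate numbers pair the samples. Over 18 same-numbered pairs, deviations from the group means correlated at -0.09 to 0.12, and 1 pair exceeded 0.1. These values show no strong effect shared by a number, but cannot show that same-numbered samples were handled apart. Of the alternatives, 8 other settings and the omission of each of the 12 arrays were run. Promoter sequences come from RefSeq's GRCh38.p14 table; 7 factors had no entry.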

Additional observations from a re-analysis of the deposited data

Results flagged for a closer look

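In 15 factors the responses of UKE1 and HEL differed by limma's test of the difference itself (UKE1 change minus HEL change, log2, adjusted p under 0.05). Negative differences were found for UBTF (-0.98), which activates ribosomal RNA genes, UTP15 (-0.39), GNL3L (-0.33) and NOLC1 (-0.32). Positive differences were found for NOP2 (0.52), GNL2 (0.50), RRP9 (0.49), UTP14A (0.46), UTP3 (0.46), NOB1 (0.43), WDR43 (0.43), BYSL (0.39), RRP1 (0.33), DDX10 (0.29) and HEATR1 (0.28). Of 18 alternative settings, the call was lost in 13 for HEATR1, 9 for DDX10, 9 for GNL3L, 3 for NOB1 and 1 for RRP1. UBTF fell 2.98-fold in UKE1 and 1.51-fold in HEL, and UTP3 rose 1.32-fold in UKE1 while its HEL change was -0.06 in log2 (adjusted p = 0.568). RRP9 and NOLC1 were each called in 1 line, RRP9 as lower in HEL (-0.65) and NOLC1 as lower in UKE1 (-0.27). Each group held 3 arrays, too few for a test of single outlying arrays.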

How the results depend on the processing

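The number of factors called varied more for the difference of response than for the other comparisons. Over the settings other than leaving out an array, 46 to 49 factors were called in UKE1, 42 to 47 in HEL, 13 to 20 for the difference and 44 to 47 between the untreated lines. Leaving out each array in turn gave 43 to 47 in UKE1, 42 to 45 in HEL, 11 to 16 for the difference and 42 to 44 between the untreated lines. The counts of factors higher with ITF2357 rest on single genes: 2 in UKE1 after quantile normalization and 2 with an intensity trend and a robust prior, 0 in HEL with only the HEL arrays, and 0 to 1 in HEL when an array was left out. Quantile normalization gave 9 factors higher in untreated UKE1, and there NOP58 reversed to 0.022 (adjusted p = 0.758). With the replicate number as a block, which the labels do not call a pairing, 47 factors were called in UKE1, 45 in HEL, 13 for the difference and 44 between the untreated lines. Of 4070 comparisons of single changes with an alternative, 3931 kept direction and call, 100 lost a call, 38 gained one and 1 reversed. Of the factors called, 4 of 47 in UKE1, 3 of 45 in HEL, 5 of 15 for the difference and 6 of 45 between untreated lines lost the call under at least 1 alternative; the cause was not tested. Leaving out 1 array also gave a call on the difference for POLR1C (0.27), NIP7 (0.32), NOC2L (0.34), NCL (0.28) and UTP11 (-0.25), each in 1 of the 12 fits. Small changes, under about 0.2, are at the limit of what 3 arrays show, and some larger ones also lost their call. Leaving out an array removed calls on UKE1 changes as large as that of BOP1 (-0.27). It also removed calls on differences of response as large as that of NOB1 (0.43).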
